A study of Mus musculus with 6 samples.

Results

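The genes described here encode enzymes of glycolysis and the subunits of lactate dehydrogenase (LDH) in mouse two-cell embryos. They were chosen by gene name and are Hk1, Gpi1, Pfkl, Aldoa, Tpi1, Pgam1, Eno1, Pkm, Ldha and Ldhb, which are 10 of the 53023 genes in the expression table. These names held 11 rows, because Aldoa had 2 rows, of which one was at 0 in each of the 6 libraries. All 10 genes had at least 1 fragment, and 9 passed the filter on low values (2 or more libraries with FPKM of at least 1). Hk1 did not pass and was not tested.

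The embryos came from ICR mice by in vitro fertilization with superovulated females and were cultured in KSOM until 28 hours post insemination (hpi). Non-injection embryos received no mRNA. PIASy-WT embryos were injected with 100 ng/µl mRNA for the SUMO E3 ligase PIASy, encoded by Pias4, and PIASy-Mut embryos with mRNA for PIASy carrying C335F in the RING finger domain, which was made to remove the ligase activity. Injection was done between 1.5 and 3 hpi, and only injected embryos with a fluorescence signal at 9 hpi were kept, a selection that non-injection embryos did not go through. Each group had 2 libraries, each made from a pool of 5 embryos, so the spread between embryos was not measured. It was not stated whether the 2 pools of a group came from separate fertilizations, so the p-values measure only the spread between these pools. In such pools, fewer cells with a transcript and less RNA per cell cannot be told apart.

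Glycolysis splits glucose into pyruvate, and LDH interconverts pyruvate and lactate. LDH is a tetramer of A, B and C subunits, encoded by Ldha, Ldhb and Ldhc. The mouse egg stores Ldhb mRNA and protein made during oocyte growth, and the early cleavage embryo uses pyruvate and lactate, with glucose becoming a main fuel only later in preimplantation development. Zygotic genome activation (ZGA) is the start of transcription from the embryo's own genome, which reaches its major wave at the two-cell stage in mice.

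The libraries held 871663 to 1363928 fragments on genes, so a gene with 3 fragments, taken as the limit of detection, had 2.20 to 3.44 FPM (fragments on the gene per 1e6 fragments). Pias4 was at 2.98 and 3.59 FPKM (FPM per kilobase of gene length) in non-injection embryos, 862 and 611 in PIASy-Mut embryos and 610 and 579 in PIASy-WT embryos. This matched the labels of injected and non-injection libraries. It does not tell PIASy-WT from PIASy-Mut, whose labels were not checked. The oocyte markers Gdf9, Zp2, Zp3, Nlrp5, Ooep and Padi6 were present in every library. Of 10 cumulus and granulosa cell markers, 4 (Amh, Inha, Inhba and Foxl2) were at 0 in every library and 3 exceeded 3 fragments in any. Their summed level was 9.93 and 10.6 FPKM in non-injection embryos, 10.1 and 11.8 in PIASy-Mut embryos and 7.79 and 7.40 in PIASy-WT embryos, and its part in the results was not tested. The sum joined opposite values, since Amhr2 was at 8.06 and 7.51, 6.77 and 4.58, and 1.13 and 1.74 FPKM in the same order and was called lower against non-injection (-1.86 ± 0.37, limma, adjusted P=0.0427), whereas Tnfaip6 was at 1.72 and 2.07, 2.83 and 5.37, and 4.85 and 5.09 FPKM and was not called (adjusted P=0.154). Summed sperm markers were at 4.92 and 5.89 FPKM in non-injection and 1.96 to 3.60 FPKM in the injected groups, on 2 to 6 fragments per library, and their part was not tested. Summed blood markers were at 2.83 to 19.1 FPKM, and the groups overlapped.

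Ldhb, on mm10 chr6:142490249-142507957 (minus strand), has a processed pseudogene, Gm5514, to which the table assigned fragments. A processed pseudogene is a copy of an mRNA inserted elsewhere in the genome, and only reads that mapped to 1 place were counted in the table. Gm5514 lies on chromosome 19, where the table counted a single interval of 306 bases, chr19:21938079-21938384 (plus strand), so most of the copy was not counted. Aligned over 1002 bases of the GENCODE M21 sequence, Gm5514 and the Ldhb coding sequence were 98.0% identical, with 20 differences. The following stretch shows how fragments of these loci can be told apart. It covers bases 853 to 942 of the Ldhb coding sequence, counted from 1 at the A of the start codon, in exon 8 of 8, with capitals at bases that differ from Ldhb. The stretch is at chr6:142490500-142490589 (minus strand) for Ldhb, chr19:21938232-21938321 for Gm5514, chr7:46854992-46855081 for Ldha and chr7:46877728-46877817 for Ldhc (plus strand for each but Ldhb).
Ldhb: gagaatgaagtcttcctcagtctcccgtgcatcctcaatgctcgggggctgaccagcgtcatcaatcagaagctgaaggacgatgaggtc
Gm5514: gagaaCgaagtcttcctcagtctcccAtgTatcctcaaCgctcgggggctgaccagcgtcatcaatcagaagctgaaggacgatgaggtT
Ldha: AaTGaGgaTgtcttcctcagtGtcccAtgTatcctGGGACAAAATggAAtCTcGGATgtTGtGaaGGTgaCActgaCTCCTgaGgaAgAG
Ldhc: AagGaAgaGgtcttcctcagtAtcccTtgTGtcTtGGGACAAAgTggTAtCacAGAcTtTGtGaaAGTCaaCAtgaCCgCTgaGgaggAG
Gm5514 differed from Ldhb at 5 of the 90 bases (T858C, G879A, C882T, T891C and C942T), Ldha at 43 and Ldhc at 41. Over their coding sequences, Ldhb was 71.3% identical to Ldha and 65.0% to Ldhc. Of the 50-base sequences of the Ldhb transcript, 27.0% also occurred in Gm5514, so a read of that length from there has no unique place by itself. The reads were paired, so the other read of a fragment can still place it.

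In each group, Ldhb was the highest of the 10 genes, and Hk1 the lowest. In non-injection, the order by mean FPKM was Ldhb, Aldoa, Ldha, Pkm, Tpi1, Gpi1, Pgam1, Eno1, Pfkl and Hk1, and only Pgam1 and Eno1 overlapped as neighbors. In PIASy-Mut, Tpi1 stood before Pkm and Pgam1 came after Eno1 and Pfkl, and the neighbors Aldoa and Ldha, Eno1 and Pfkl, and Pfkl and Pgam1 overlapped. In PIASy-WT, Ldhb was followed by Tpi1, Ldha, Aldoa, Pkm, Gpi1, Eno1, Pgam1, Pfkl and Hk1, and Tpi1 overlapped with Ldha, Ldha with Aldoa and Pkm with Gpi1. The mean FPKM of Ldhb was 7.48 times that of the next gene in non-injection, 13.6 times in PIASy-Mut and 22.9 times in PIASy-WT. The table divides by the length of all exons joined, which was 1.03 to 2.65 times the length of the principal transcript. With that transcript's length, which was chosen after seeing the data, Ldhb was 4.67, 8.47 and 16.1 times as high as the next gene, and only Pgam1 and Eno1 in non-injection changed places.

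**Figure D1:**
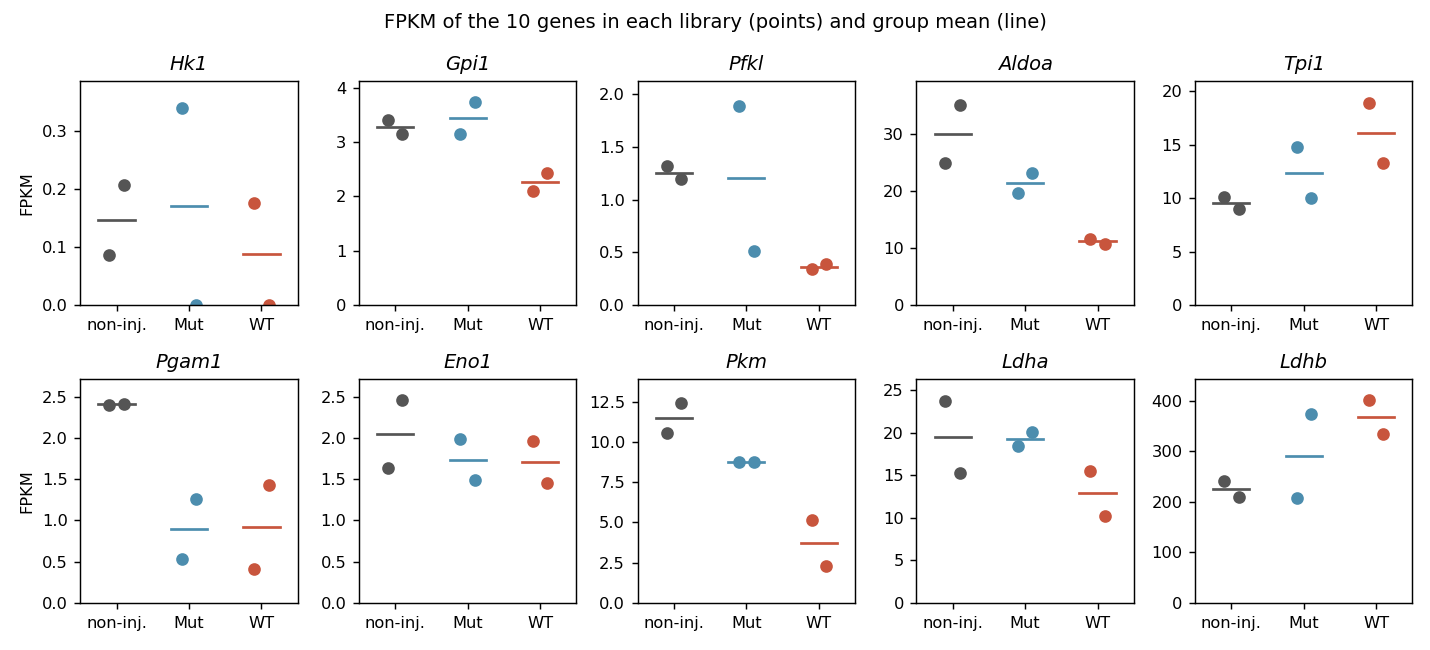
FPKM (vertical axes, each from 0) of the 10 genes in the 3 groups, with 1 point per library and a line at the group mean (n=2). Ldhb is above 200 FPKM in every library, whereas Hk1 is below 0.4. For Aldoa and Pkm, both PIASy-WT libraries lie below the other 4.

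No member was called in any comparison by limma, the main test, with a call at adjusted P≤0.05 for a difference of 1 or more on the log2(FPKM + 1) scale. Against non-injection, 0 of 9 tested members were called in either direction in PIASy-WT, where 5.76% of all 16100 tested genes were called lower and 1.03% higher. Against PIASy-Mut, 0 of 9 were called, where 6.01% of genes were lower and 0.820% higher. These comparisons share the PIASy-WT libraries. At an unadjusted P under 0.05, Aldoa and Pkm passed in each of them, which is 2 of 9 members where 28.2% of all genes did so against non-injection and 27.7% against PIASy-Mut. In PIASy-Mut against non-injection, 0 of 9 members were called and 0 had an unadjusted P under 0.05, and 0.00621% of genes were called. Voom on the fragments recovered from FPKM, which tested 8 members, called Aldoa and Pkm lower in the PIASy-WT embryos against non-injection, where it called 18.3% of all 10193 tested genes lower and 7.36% higher, and no member in the other comparisons, with 18.2% of genes lower and 5.11% higher against PIASy-Mut. On simulated data, limma on this scale recovered most changes of 3 and few of 2 on the log2 scale. The simulation changed far fewer genes than were called here, with a fixed spread. All of them had more fragments than Gpi1, Pfkl, Pgam1 or Eno1, so these rates need not hold here. A member that was not called is not shown to be unchanged. Of the 1094 and 1100 genes that limma called in the PIASy-WT comparisons, 50 and 54 had a mean under 1 fragment per library, where its false calls lay in the simulation.

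Both libraries of PIASy-WT were below both of non-injection for 5 of 9 tested members (Gpi1, Pfkl, Aldoa, Pgam1 and Pkm), where 31.9% of genes were so, and above them for 2 (Tpi1 and Ldhb), where 29.8% were so. Against PIASy-Mut, 5 members (Gpi1, Pfkl, Aldoa, Pkm and Ldha) were below, where 31.0% of genes were so, and 0 above, where 25.5% were so. The median fitted difference of the 9 tested members in PIASy-WT was -0.56 relative to non-injection and -0.44 relative to PIASy-Mut, beside 0.01 and -0.03 over all tested genes. Pfkl passed the filter only through libraries of non-injection and PIASy-Mut.

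**Figure D2:**
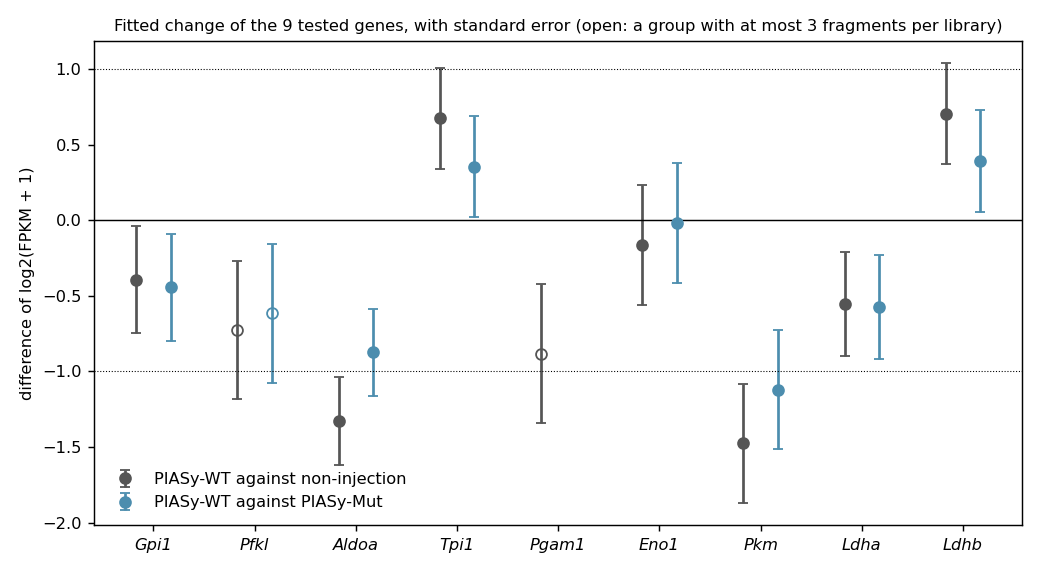
Fitted difference of log2(FPKM + 1) with its standard error for the 9 tested genes, in PIASy-WT against non-injection (gray) and PIASy-WT against PIASy-Mut (blue), with dotted lines at 1 and -1. Aldoa (-1.33) and Pkm (-1.48) are below -1 against non-injection and Ldhb (0.71) and Tpi1 (0.68) are above 0. Open points mark genes for which 1 group had no library above 3 fragments, and Pgam1 against PIASy-Mut is not drawn because both groups were at that limit.

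The first steps, which trap glucose as glucose 6-phosphate and commit it to glycolysis, were at the limit of detection or near it. Hk1, one of the hexokinases, had 1 and 2 fragments in non-injection embryos, 3 and 0 in PIASy-Mut embryos and 2 and 0 in PIASy-WT embryos, so no group exceeded 3 fragments in a library. The antisense gene Hk1os, which shares 157 bases of exon with it, had 10 fragments over the 6 libraries against 8 of Hk1. Whether counting used the strand is not given in the sources used here, and reads of these genes cannot be told apart without it. Hk2, the other widely expressed hexokinase, was at 0.860 and 1.19 FPKM in non-injection embryos, 0.812 and 0.961 in PIASy-Mut embryos and 1.52 and 2.04 in PIASy-WT embryos. Its differences were 0.46 ± 0.39 (SE) against non-injection and 0.55 ± 0.39 against PIASy-Mut, and neither passed (limma, adjusted P=0.478 and adjusted P=0.405).

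Gpi1, glucose-6-phosphate isomerase, was at 3.41 and 3.15 FPKM in non-injection embryos, 3.15 and 3.73 in PIASy-Mut embryos and 2.10 and 2.43 in PIASy-WT embryos. The PIASy-WT libraries were below all others, but the differences of -0.39 ± 0.35 and -0.44 ± 0.35 were near their standard errors (limma, adjusted P=0.504 and adjusted P=0.462). Pfkl is the liver-type subunit of phosphofructokinase, the enzyme of the committed step. It had 12 and 9 fragments in non-injection embryos, 13 and 3 in PIASy-Mut embryos and 3 and 3 in PIASy-WT embryos. As summed FPM per group, the level in PIASy-WT was 0.288 times that in non-injection (exact 95% interval 0.0951 to 0.738) and 0.288 times that in PIASy-Mut (0.0925 to 0.776). The latter rests on PIASy-Mut replicate 1, since the ratio to replicate 2 alone was 0.704 (0.150 to 4.35). These intervals cover counting error only, and the fit over libraries did not call it (limma, adjusted P=0.348 and adjusted P=0.433).

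Aldoa and Tpi1 act at the split of the sugar, where aldolase cuts fructose 1,6-bisphosphate and triose phosphate isomerase interconverts its products. Aldoa, on mm10 chr7:126795234-126800751, was at 24.9 and 35.2 FPKM in non-injection embryos, 19.6 and 23.3 in PIASy-Mut embryos and 11.7 and 10.8 in PIASy-WT embryos. The 3 groups did not overlap, with PIASy-Mut between the others. The difference of PIASy-WT was -1.33 ± 0.29 against non-injection, just short of the call (limma, adjusted P=0.0509), and -0.87 ± 0.29 against PIASy-Mut (adjusted P=0.117). Against non-injection, 3 of 12 alternative settings called it, with adjusted P from 0.0136 to 0.0812 over the 12. Those 3 settings called 13.3% to 18.3% of all genes lower. The fits without PIASy-Mut replicate 1 or without PIASy-Mut replicate 2 also called it, and they too called more of all genes lower than the main fit. The 4 fits that left out a library of the groups compared gave differences from -1.57 to -1.09. These fits take the spread of the remaining single library from the other groups and called 0 or 1 of all genes, so the lack of a call there says nothing about Aldoa.

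Tpi1 was at 10.1 and 8.99 FPKM in non-injection embryos, 14.78 and 10.001 in PIASy-Mut embryos and 18.9 and 13.3 in PIASy-WT embryos. PIASy-WT was above non-injection in both libraries and overlapped PIASy-Mut. Its differences were 0.68 ± 0.33 and 0.36 ± 0.33, and neither passed (limma, adjusted P=0.242 and adjusted P=0.525). Of the enzymes that follow and are not among the 10 genes, Gapdh was at 6.56 and 3.00 FPKM in non-injection embryos, 2.81 and 3.61 in PIASy-Mut embryos and 5.84 and 4.84 in PIASy-WT embryos. Pgk1, which makes the first ATP of the pathway, was at 14.4 and 10.6, 12.1 and 10.2, and 11.1 and 8.53 FPKM in the same order. Differences of Gapdh (0.20 ± 0.43 and 0.59 ± 0.43) and Pgk1 (-0.32 ± 0.31 and -0.18 ± 0.31) did not pass in limma, with adjusted P from 0.423 to 0.791.

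Pgam1 and Eno1 catalyze the steps from 3-phosphoglycerate to phosphoenolpyruvate, and both were low. Pgam1, a phosphoglycerate mutase, had 6 and 5 fragments in non-injection embryos, 1 and 2 in PIASy-Mut embryos and 1 and 3 in PIASy-WT embryos. The level in PIASy-WT was 0.367 times that in non-injection (exact 95% interval 0.0851 to 1.24), and that in PIASy-Mut 0.357 times (0.0640 to 1.35), so these intervals include 1. Eno1, alpha-enolase, was at 1.64 and 2.47 FPKM in non-injection embryos, 1.98 and 1.49 in PIASy-Mut embryos and 1.96 and 1.46 in PIASy-WT embryos, and the groups overlapped. Its difference against PIASy-Mut was -0.02 ± 0.40 and turned positive under each of the 3 other scalings, and that against non-injection was -0.16 ± 0.40 (limma, adjusted P=0.988 and adjusted P=0.817). Of the 50-base sequences of Eno1, 70.5% also occurred in the copy Eno1b. A read of that length from there has no unique place by itself, so the level of Eno1 is uncertain. Eno1b itself had 9 fragments over the 6 libraries. The same limit holds for 41.5% of the 50-base sequences of Pgam1, all found in Pgam1-ps2, 34.4% of those of Pkm, 25.3% of Gpi1, 17.1% of Ldha, 13.9% of Aldoa and 7.51% of Tpi1, so the order of the levels is uncertain too.

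Pkm, on mm10 chr9:59656368-59679375, encodes the pyruvate kinase of muscle and embryo, which makes pyruvate and ATP in the last step. It was at 10.6 and 12.4 FPKM in non-injection embryos, 8.72 and 8.72 in PIASy-Mut embryos and 5.13 and 2.26 in PIASy-WT embryos. The 3 groups did not overlap, again with PIASy-Mut in the middle. The differences of PIASy-WT were -1.48 ± 0.40 against non-injection (limma, adjusted P=0.0754) and -1.12 ± 0.40 against PIASy-Mut (adjusted P=0.132). Against non-injection, 2 of 12 alternative settings called it, with adjusted P from 0.0135 to 0.121. In PIASy-WT the level rested on 34 and 13 fragments.

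Ldha, on mm10 chr7:46841475-46855627, encodes the A subunit of LDH, the form of muscle. It was at 23.7 and 15.2 FPKM in non-injection embryos, 18.4 and 20.1 in PIASy-Mut embryos and 15.5 and 10.3 in PIASy-WT embryos. PIASy-WT overlapped non-injection and was below PIASy-Mut. The differences of -0.56 ± 0.34 and -0.57 ± 0.34 did not pass (limma, adjusted P=0.339 and adjusted P=0.338).

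Ldhb, the B subunit found in heart and in the oocyte, was at 241 and 209 FPKM in non-injection embryos, 208 and 373 in PIASy-Mut embryos and 401 and 335 in PIASy-WT embryos. Among the 16100 tested genes it ranked 233 and 277, 327 and 128, and 117 and 141 in the same order. PIASy-WT was above non-injection in both libraries, whereas the libraries of PIASy-Mut were far apart, with replicate 1 at the level of non-injection and replicate 2 at that of PIASy-WT. Its difference was 0.71 ± 0.33 against non-injection (limma, adjusted P=0.228) and 0.39 ± 0.33 against PIASy-Mut (adjusted P=0.488), and it was 0.31 ± 0.33 in PIASy-Mut against non-injection. Without PIASy-Mut replicate 1 the difference from PIASy-Mut was -0.03, and without PIASy-Mut replicate 2 it was 0.81 (adjusted P=0.0597). It had 337 to 835 fragments per library.

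Gm5514 had 51 and 44 fragments in non-injection embryos, 44 and 60 in PIASy-Mut embryos and 95 and 78 in PIASy-WT embryos. As a share of the fragments of Ldhb and Gm5514 together, this was 8.99% and 10.6%, 11.5% and 10.5%, and 10.2% and 11.4%. The 95% Wilson intervals of these shares ran from 6.91% to 15.1% over the 6 libraries and cover counting error only. Per length, Gm5514 was at 122 and 127 FPKM in non-injection embryos, 139 and 225 in PIASy-Mut embryos and 234 and 222 in PIASy-WT embryos, which is 33.6% to 40.1% of its FPKM and that of Ldhb together and above every member but Ldhb in each library. Its difference of 0.87 ± 0.29 against non-injection did not pass (limma, adjusted P=0.119). The counted part of Gm5514 had 6 differences from Ldhb in 303 aligned bases, and its longest identical run was 147 bases. Whether these fragments came from Gm5514 or from Ldhb mRNA was not tested. With them added, the difference of Ldhb against non-injection was 0.72 in place of 0.71.

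Among all members, 68 processed pseudogenes in the table matched a member's transcript over at least 200 bases at 80% identity or more, and 22 of them had a fragment. They held 446 fragments against 4763 of the members (9.36%), of which Gm5514 had 372. Ldha had the most such copies, 24, with 24 fragments against its own 392. Eno1 had 10 copies with 16 fragments against 68, Pgam1 4 copies with 6 fragments against 18, and Pkm 11 copies with 20 fragments against 272. Aldoa had 11 copies with 1 fragment against 414, Tpi1 6 copies with 7 fragments against 243, and Gpi1 1 copy with 0 fragments. No copy of Hk1 or Pfkl was found. Only Gm5514 had 10 fragments or more in a library.

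Ldhc, which lies next to Ldha on mm10 chr7:46861203-46878142 and is best known from sperm, fell in PIASy-WT. It was at 24.6 and 32.5 FPKM in non-injection embryos, 43.5 and 26.1 in PIASy-Mut embryos and 7.64 and 8.81 in PIASy-WT embryos, on 16 fragments in each PIASy-WT library. The PIASy-WT libraries were below the other 4, with differences of -1.67 ± 0.34 against non-injection (limma, adjusted P=0.0447) and -1.92 ± 0.34 against PIASy-Mut (adjusted P=0.0343). It shared none of its 50-base sequences with another gene. Of 12 alternative settings, 7 called it in each comparison, with adjusted P from 0.0151 to 0.0748 and from 0.00766 to 0.0745.

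The share of Ldhb in the FPKM of Ldha and Ldhb was 91.0% and 93.2% in non-injection embryos, 91.9% and 94.9% in PIASy-Mut embryos and 96.3% and 97.0% in PIASy-WT embryos. Both PIASy-WT libraries were above the other 4. No test of this share was made, and with 2 libraries per group the smallest P a two-sided exact permutation test can give is 0.333. As a share of fragments, it was 82.8% (95% Wilson interval 79.7% to 85.6%) and 86.7% (83.1% to 89.6%) in non-injection, 84.3% (80.4% to 87.5%) and 89.8% (87.0% to 92.0%) in PIASy-Mut, and 92.5% (90.6% to 94.0%) and 93.9% (91.8% to 95.5%) in PIASy-WT. The interval of PIASy-Mut replicate 2 overlapped those of both PIASy-WT libraries, and these intervals cover counting error only. With Ldhc included, the 3 LDH genes summed to 289 and 257 FPKM in non-injection embryos, 270 and 420 in PIASy-Mut embryos and 424 and 354 in PIASy-WT embryos, and Ldhc made up 8.50% and 12.6%, 16.1% and 6.23%, and 1.80% and 2.49% of this sum.

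**Figure D3:**
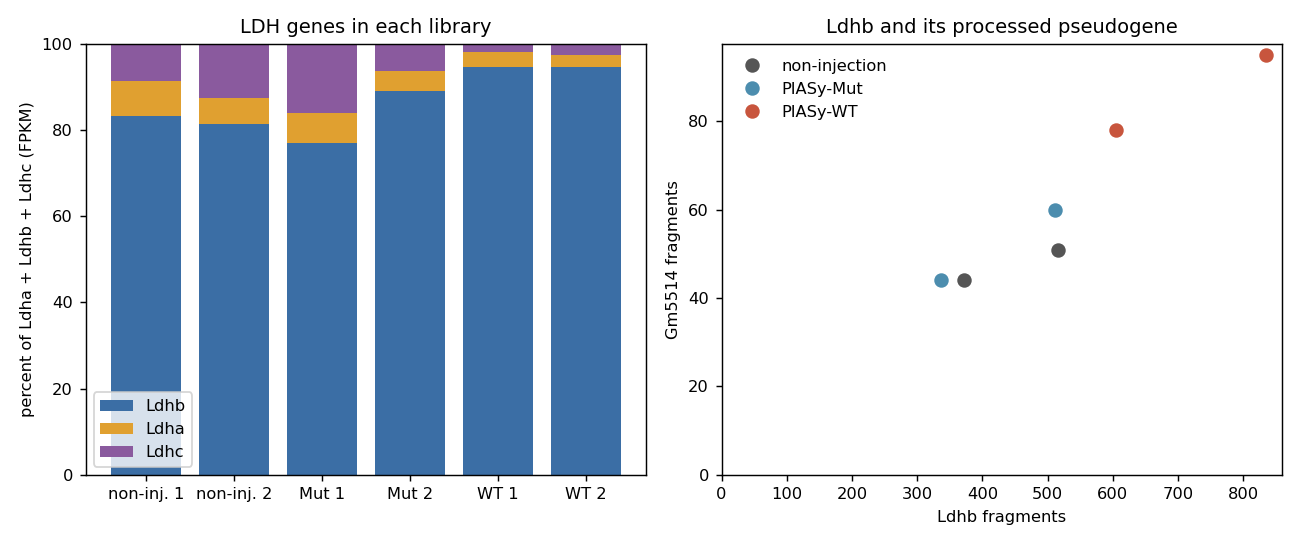
Left, percent of the summed FPKM of Ldhb, Ldha and Ldhc in each of the 6 libraries. Ldhb makes up 77.0% to 89.0% in non-injection and PIASy-Mut and 94.5% and 94.6% in PIASy-WT. Right, fragments of the processed pseudogene Gm5514 against fragments of Ldhb, with 1 point per library, where Gm5514 has 44 to 95 fragments.

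The other 9 members summed to less in PIASy-WT. Their sum was 78.2 and 81.3 FPKM in non-injection embryos, 69.5 and 69.1 in PIASy-Mut embryos and 56.2 and 42.2 in PIASy-WT embryos. The groups did not overlap in this sum, which has no test here. It joined opposite values and was set mostly by Aldoa, Ldha and Pkm. Their means were 30.1, 19.5 and 11.5 FPKM in non-injection and 11.2, 12.9 and 3.70 in PIASy-WT. Tpi1 went the other way, at 9.56 and 16.1 FPKM. Ldhb made up 75.5% and 72.0% of the FPKM of the 10 genes in non-injection embryos, 75.0% and 84.4% in PIASy-Mut embryos and 87.7% and 88.8% in PIASy-WT embryos.

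Ldhb was set beside a list of 20 oocyte-expressed genes and a list of 30 genes known to be activated in the two-cell embryo. Of the 28 activated genes tested, 7 were called lower and 0 higher in PIASy-WT against non-injection, and 8 were called lower and 0 higher against PIASy-Mut, where 5.76% and 6.01% of all tested genes were called lower. Of the 28, 22 were below 0 and 6 above against non-injection, and 23 and 5 against PIASy-Mut. Their median difference was -0.86 and -0.87. Pdxk, pyridoxal kinase, was at 35.9 and 48.7 FPKM in non-injection embryos, 62.1 and 34.4 in PIASy-Mut embryos and 1.12 and 0.322 in PIASy-WT embryos, a difference of -4.68 ± 0.42 against non-injection (limma, adjusted P=0.0224). Dppa4, a chromatin factor of the early embryo, was at 152 and 162, 269 and 109, and 11.8 and 8.51 FPKM in the same order, and fell by 3.84 on the log2 scale against non-injection. Obox3, an oocyte-type homeobox gene, was at 148 and 118, 178 and 115, and 10.6 and 6.82 FPKM. Usp17lb, of a deubiquitinase family with near-identical copies that make its level uncertain, was at 387 and 420, 582 and 415, and 66.7 and 69.7 FPKM. Usp17le of the same family had the opposite values, at 5.17 and 1.34, 1.95 and 5.20, and 18.99 and 12.7 FPKM, with differences of 2.12 ± 0.61 and 1.95 ± 0.61 that did not pass in limma (adjusted P=0.0877 and adjusted P=0.105) and were called higher by voom (adjusted P=0.0222 and adjusted P=0.0342). In Pdxk, Dppa4, Obox3 and Usp17lb, both PIASy-WT libraries were below the other 4. This follows from how these genes were chosen, since they were named for a call by limma. Ldhb in PIASy-WT was above non-injection.

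The median FPKM of the 30 activated genes was 29.3 and 26.8 in non-injection embryos, 33.1 and 31.4 in PIASy-Mut embryos and 11.2 and 9.85 in PIASy-WT embryos. Ldhb was 8.23 and 7.79 times this median in non-injection embryos, 6.28 and 11.9 times in PIASy-Mut embryos and 35.8 and 34.0 times in PIASy-WT embryos. Over the median of the 20 oocyte-expressed genes it was 7.92 and 5.29, 4.38 and 8.82, and 17.5 and 13.1 times in the same order, so both ratios were highest in PIASy-WT. Among the 20 oocyte-expressed genes, which all passed the filter, 15 had a fitted difference above 0 and 5 below 0 in PIASy-WT against non-injection, with a median of 0.31. Against PIASy-Mut, 11 were above 0 and 9 below (median 0.20), and in PIASy-Mut against non-injection 14 and 6 (median 0.16). Their median FPKM went the other way, at 30.4 and 39.5 in non-injection embryos, 47.5 and 42.3 in PIASy-Mut embryos and 23.0 and 25.5 in PIASy-WT embryos. Limma called Zp3 alone in this list, a protein of the egg coat, and it fell in both comparisons of PIASy-WT. It was at 70.9 and 73.5 FPKM in non-injection embryos, 80.6 and 74.6 in PIASy-Mut embryos and 25.1 and 22.4 in PIASy-WT embryos, a difference of -1.57 ± 0.23 against non-injection (limma, adjusted P=0.0292). Voom also called Bmp15, Btg4, Gdf9 and Npm2 higher against non-injection and Bcl2l10, Bmp15 and Btg4 higher against PIASy-Mut. Bmp15, a growth factor of the oocyte, was at 482 and 461 FPKM in non-injection embryos, 328 and 745 in PIASy-Mut embryos and 1283 and 1478 in PIASy-WT embryos, with differences of 1.55 ± 0.41 and 1.48 ± 0.41 that did not pass in limma (adjusted P=0.0737 and adjusted P=0.0824). PIASy-Mut replicate 2, where Ldhb was high, was above replicate 1 in 13 of these 20 genes and in 11 of the 30 activated genes.

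The genes most like Ldhb over the 6 libraries were 3110043O21Rik (Pearson r=0.997), Apoo-ps (r=0.995) and Ube2d2a (r=0.994), out of 4719 other tested genes with a mean FPKM of at least 10. Ube2d2a, a ubiquitin-conjugating enzyme, was at 146 and 136 FPKM in non-injection embryos, 133 and 172 in PIASy-Mut embryos and 182 and 169 in PIASy-WT embryos. Like Ldhb, it had replicate 2 of PIASy-Mut beside PIASy-WT. The same 6 libraries give every r, so any difference between whole libraries enters it, and 72 genes reached r of at least 0.95 with Ldhb and 9 with Ldha. The genes most like Ldha were Rnf2 (r=0.978), a Polycomb ubiquitin ligase, Lsm14a (r=0.969) and Gm4027 (r=0.963).

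Glucose enters and lactate leaves the cell through Slc2a and Slc16a transporters, and basigin (Bsg) is the chaperone of the lactate carriers. Of the 10 transport genes, 5 were tested, and limma called Bsg alone, at 22.2 and 20.5 FPKM in non-injection embryos, 24.0 and 33.5 in PIASy-Mut embryos and 51.2 and 57.6 in PIASy-WT embryos. It rose by 1.31 ± 0.27 against non-injection (limma, adjusted P=0.0456), and against PIASy-Mut its difference of 0.91 ± 0.27 did not pass (adjusted P=0.0951). The glucose transporter Slc2a1 was at 2.09 and 1.26, 1.11 and 2.94, and 7.10 and 7.44 FPKM in the same order, with PIASy-WT above the other 4 libraries. Its differences of 1.65 ± 0.45 and 1.52 ± 0.45 did not pass in limma (adjusted P=0.0796 and adjusted P=0.0945), and voom called it higher in both comparisons (adjusted P=0.0261 and adjusted P=0.0424). Slc16a1, a carrier of lactate and pyruvate, had the opposite values from Bsg. It was at 16.1 and 18.6 FPKM in non-injection embryos, 16.0 and 16.6 in PIASy-Mut embryos and 7.16 and 8.45 in PIASy-WT embryos, with PIASy-WT below the other 4. Its differences of -1.06 ± 0.27 and -0.98 ± 0.27 did not pass in limma (adjusted P=0.0706 and adjusted P=0.0833), and voom called it lower in both comparisons (adjusted P=0.0279 and adjusted P=0.0448). Slc2a3 was at 2.93 and 2.93, 1.47 and 1.58, and 2.08 and 2.52 FPKM and was not called. The medians of the 5 tested genes were -0.26 against non-injection and 0.38 against PIASy-Mut.

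Among 19 other isozymes of glycolysis and LDH, which include Hk2, Gapdh, Pgk1 and Ldhc above, 9 were tested and limma, like voom, called only Ldhc, in both comparisons of PIASy-WT. Their median difference was -0.16 and -0.09. Of 15 genes for the regulation of glycolysis and glucose storage, 12 were tested and limma called Tigar, while voom called Tigar in both comparisons and Pfkfb3 lower against PIASy-Mut. Pfkfb3 passed the filters only through non-injection and PIASy-Mut libraries and had 5 and 0 fragments in PIASy-WT. Tigar encodes a fructose bisphosphatase that lowers fructose 2,6-bisphosphate, an activator of phosphofructokinase. It was at 48.5 and 76.4 FPKM in non-injection embryos, 80.8 and 48.3 in PIASy-Mut embryos and 8.87 and 3.33 in PIASy-WT embryos. The PIASy-WT libraries were below the other 4, with differences of -3.24 ± 0.50 and -3.28 ± 0.50 (limma, adjusted P=0.0300 and adjusted P=0.0274), and 10 of 12 alternative settings called it in each comparison.

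The genes that lead glucose or pyruvate elsewhere were mixed. Of 14 tested genes for the entry of pyruvate into mitochondria, limma called Mpc2, a subunit of the mitochondrial pyruvate carrier, which fell. It was at 38.6 and 49.1 FPKM in non-injection embryos, 45.5 and 34.2 in PIASy-Mut embryos and 17.9 and 13.4 in PIASy-WT embryos, with differences of -1.44 ± 0.30 (limma, adjusted P=0.0455) and -1.30 ± 0.30 (adjusted P=0.0562). It was called in 6 of 12 alternative settings against non-injection and in 2 of 12 against PIASy-Mut. Voom called Pdp2, Pdhb and Pdha1, a phosphatase and subunits of pyruvate dehydrogenase, lower in both comparisons. It also called Pdp1 higher against non-injection and Pdha2, Dlat and Pdhx higher against PIASy-Mut. Pdp2 was at 12.1 and 12.3 FPKM in non-injection embryos, 13.8 and 7.26 in PIASy-Mut embryos and 3.18 and 1.22 in PIASy-WT embryos, with a difference of -2.11 ± 0.46 against non-injection (limma, adjusted P=0.0510). The differences of Pdhb (-1.42 ± 0.37) and Pdha1 (-1.31 ± 0.46) did not pass (limma, adjusted P=0.0725 and adjusted P=0.131), and for each of these 3 genes PIASy-WT was below the other 4 libraries. Pdha2, another subunit, passed the filter only through PIASy-WT and 1 non-injection library. Limma called it higher against PIASy-Mut (adjusted P=0.0455), as did 6 of 11 alternative settings and 0 of 6 fits that left out a library, and there it was at 0.412 and 0 FPKM on 1 fragment in all, beside 1.25 and 0.752 in non-injection and 3.85 and 3.70 in PIASy-WT. The medians over these 14 genes were 0.29 and 0.20.

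Of 7 tested genes of the pentose phosphate pathway, which makes NADPH and ribose from glucose 6-phosphate, Tktl1, a transketolase-like protein, fell in both comparisons, from 38.5 and 39.0 FPKM in non-injection and 49.4 and 34.3 in PIASy-Mut to 10.4 and 15.1 in PIASy-WT. Its differences were -1.55 ± 0.31 and -1.64 ± 0.31 (limma, adjusted P=0.0433 and adjusted P=0.0385), and 7 and 6 of 12 alternative settings called it. Taldo1, transaldolase, was at 37.8 and 57.0, 79.9 and 46.5, and 17.03 and 10.02 FPKM in the same order. It passed against PIASy-Mut (-2.14 ± 0.41, limma, adjusted P=0.0394) and not against non-injection (-1.75 ± 0.41, adjusted P=0.0585), and 6 and 3 of 12 alternative settings called it. G6pdx, the enzyme of entry into the pathway, had the opposite values, at 100.5 and 64.6, 87.8 and 109 and 174 and 186 FPKM, with PIASy-WT above the other 4 libraries. Its differences of 1.15 ± 0.29 and 0.87 ± 0.29 did not pass in limma (adjusted P=0.0687 and adjusted P=0.120), and voom called it higher against non-injection (adjusted P=0.00715). The medians over the pathway were -0.63 and -0.35. Of 9 tested genes of the malate-aspartate and glycerol phosphate shuttles, which carry the electrons of cytosolic NADH into mitochondria, 0 were called by limma in any comparison while against non-injection 2 (Mdh2 and Slc25a13) were called by voom, which called 25.6% of all genes, and 2 had an unadjusted P under 0.05, as did 28.2% of all genes. Limma called 0 genes of the lists in PIASy-Mut against non-injection, as did voom, and 3 genes, all of the oocyte-expressed list, had an unadjusted P under 0.05, as did 4.46% of all genes. Voom also called each of the 14 genes of the lists and markers that limma called against non-injection, and each of the 14 against PIASy-Mut, where it called 25.6% and 23.3% of all genes. Without either library of non-injection or PIASy-WT, or without PIASy-Mut replicate 1 for the comparison with PIASy-Mut, each of these genes kept its direction and a difference of 1 or more, at 0.814 to 1.19 times its value with all libraries. None was called there, in fits that called at most 1 gene of all.

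**Figure D4:**
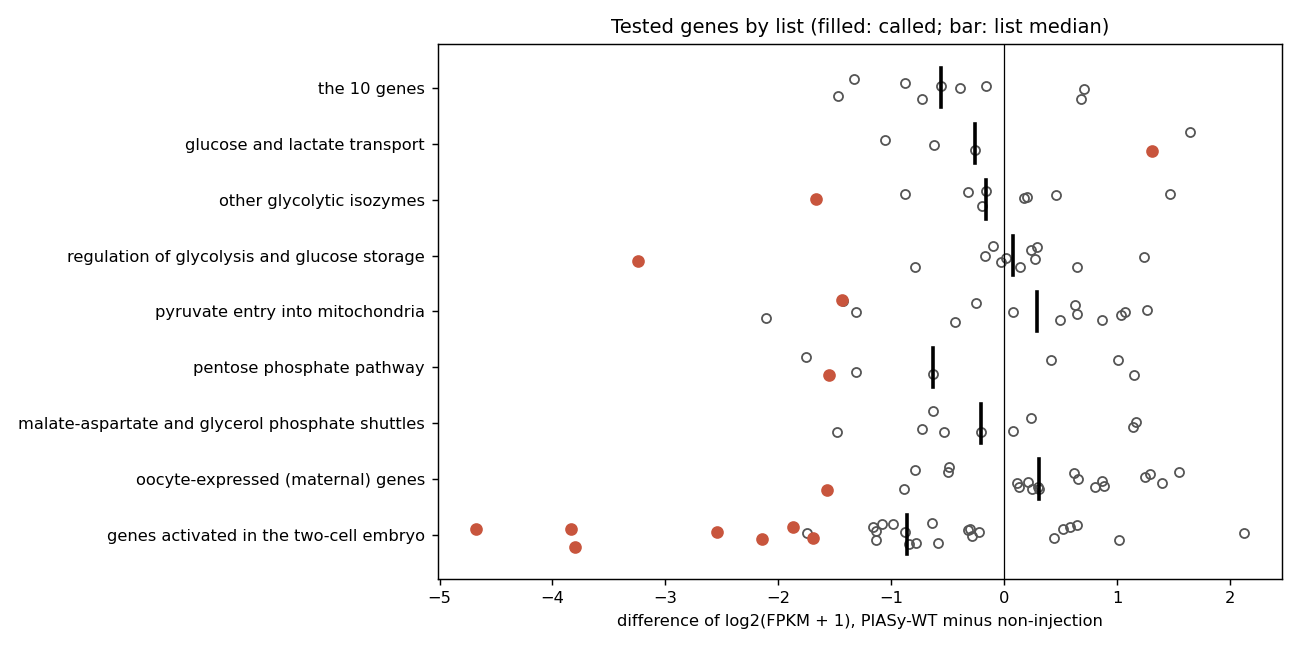
Fitted difference of log2(FPKM + 1) in PIASy-WT minus non-injection (horizontal axis) for the tested genes of the 10 members and of 8 lists (rows), with filled points for called genes and a black bar at each median. The members have a median of -0.56 and no filled point, and the activated genes a median of -0.86 and 7 filled points.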

How the data were processed

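RNA-seq was performed on 6 pools of two-cell embryos in 3 groups, taken from the labels. The authors amplified cDNA with 11 PCR cycles (SMART-Seq v4) and libraries with 13 (Nextera XT), trimmed reads with Trim Galore, used STAR for alignment to mm10 and assigned reads with a single mapping position to genes by featureCounts. The deposited values are FPKM per gene. The annotation release and the strand setting are not given in the sources used here. A total of 0 spike-in rows were in the table, so values are shares of a library.

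FPKM times length, divided by the value of 1 fragment, gave whole numbers for 100% of values (tolerance 0.01), which gave depth and fragments. The main test was limma 3.58.1 (R 4.3.3) with lmFit and eBayes with trend on log2(FPKM + 1), over 16100 genes in all 6 libraries, adjusted by Benjamini-Hochberg. The pseudocount of 1 understates changes of low genes. The authors used DESeq2 on counts, which was not run here. On simulated data with known changes, limma recovered most changes of 3 and few of 2 on the log2 scale, with more false calls than the threshold allows, in genes with hardly any fragments. Voom recovered most changes of both sizes with fewer false calls. Sequences and transcripts were from GENCODE M21 (GRCm38, the assembly of mm10), which held 99.8% of the gene identifiers. Copies were found with blastn 2.17.0 and coding sequences aligned with Biopython 1.88. Tables and figures were made in Python 3.11.15 (pandas 2.3.3, matplotlib 3.10.9, scipy 1.17.1).

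Exons of 5 members overlap another gene (Hk1os, Gm26762, Fam57b, Spsb2 and AC160637.1, by 25 to 767 bases). The members and gene lists were chosen with earlier results of these data known. Named genes were the members, up to 4 called genes per list by size of change, Hk2, Gapdh, Pgk1, Slc2a1 and Slc2a3, pseudogenes with at least 10 fragments in a library, and the 3 genes most like Ldhb and Ldha. Slc16a1, G6pdx, Usp17le, Tnfaip6, Bmp15, Pfkp and the genes named only for a call by voom were named after their values were seen. The alternatives were other pseudocounts (0.1 and 3), filters and scalings, eBayes with no trend, fitting only the groups compared, a replicate block, voom, added pseudogene fragments, a call at a log2 change of 2, leaving out each library, and the principal transcript's length, the last chosen after seeing the data.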

Additional observations from a re-analysis of the deposited data

How the results depend on the processing

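The number of members called lower in PIASy-WT against non-injection, 0 in the main test, was 2 (Aldoa and Pkm) with a filter of FPKM of at least 5, 2 (Aldoa and Pkm) with voom and 1 (Aldoa) in the fit on the groups compared, where 17.3%, 18.3% and 13.3% of all genes were called lower, and it ranged from 0 to 1 when each library was left out. Every other alternative run, and both other comparisons, kept 0 members called in either direction. Of 351 fold changes of members under alternatives, 335 kept their direction and side of the threshold, 7 (Aldoa and Pkm) passed it and 9 reversed. These are the 9 tested members against non-injection, 8 against PIASy-Mut (without Pgam1, at the limit of detection in both groups), and Aldoa, Pkm and Ldhb in PIASy-Mut against non-injection. For the other 6 members in that comparison and Pgam1 against PIASy-Mut, 104 of 119 kept their direction with no call, and 15 (of Eno1, Gpi1, Ldha, Pfkl and Pgam1) reversed. Eno1 against PIASy-Mut reversed to 0.069 with quantile normalization, 0.057 with median-of-ratios scaling, 0.012 with the total without Pias4 and mitochondrially encoded genes and 0.089 with pseudogene fragments added, and to 0.11 and 0.12 without PIASy-Mut replicate 1 and without PIASy-WT replicate 2, in a range of -0.15 to 0.12 over the fits that left out a library. Eno1 against non-injection ranged from -0.36 to 0.034 over these fits and was reversed without non-injection replicate 2. Ldhb ranged from -0.027 (without PIASy-Mut replicate 1) to 0.81 against PIASy-Mut, and from -0.11 (without PIASy-Mut replicate 2) to 0.73 in PIASy-Mut against non-injection. The causes were not tested. As a share of fragments, Ldhb made up 84.8%, 87.0% and 93.2% of Ldha and Ldhb in non-injection, PIASy-Mut and PIASy-WT, in place of 92.1%, 93.4% and 96.7% by FPKM, since Ldha has the longer gene length. Added pseudogene fragments moved these shares by less than the spread of the libraries.

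Replicate numbers were shared by the groups, but same-numbered libraries did not deviate together (correlations 0.00, 0.09 and 0.06), so the numbers were not taken as pairs. With the replicate block, 719 genes were lower and 89 higher than in non-injection and 799 lower and 67 higher than in PIASy-Mut, and 0 members were called. Over all genes, the calls lower and higher than in non-injection (928 and 166 of 16100) were 154 and 16 with no filter, 1430 and 325 of 8282 at FPKM of at least 5, 256 and 59 with no trend, 1922 and 872 of 14448 in the fit on the groups compared and 1861 and 750 of 10193 with voom. Those against PIASy-Mut (968 and 132) were 243 and 11, 1475 and 202, 464 and 90, 0 and 0, and 1857 and 521 in the same order, and 490 and 124 with quantile normalization, which moved the median gene to 0.12 and 0.11. Without any 1 non-injection or PIASy-WT library, at most 1 gene was called in either of these comparisons. More genes than with all libraries were called against PIASy-Mut when PIASy-Mut replicate 2 was left out. The same held against non-injection when either PIASy-Mut replicate was left out. Of 610 fold changes of the 17 called genes of the lists and markers, 391 kept their side of the threshold, 204 missed it, 15 passed it and 0 reversed. Of 464 of the 13 other named genes with a fold change, 416 kept theirs, 46 passed it and 2 reversed. Gapdh against non-injection ranged from -0.26 (without non-injection replicate 2) to 0.66 when each library was left out, and Pgk1 against PIASy-Mut was 0.13 with quantile normalization. Voom called 25.6% and 23.3% of all 10193 genes it tested against non-injection and PIASy-Mut, and limma 6.80% and 6.83% of 16100. Against non-injection, voom called more list genes, with 3 in place of 1 for transport, 5 in place of 1 for pyruvate entry, 4 in place of 1 for the pentose phosphate pathway, 5 in place of 1 for oocyte-expressed genes, 11 in place of 7 for activated genes and 2 in place of 0 for the shuttles. Against PIASy-Mut, it called 2 in place of 0, 7 in place of 1, 3 in place of 2, 4 in place of 1, 13 in place of 8 and 0 in both, in the same order, and 2 in place of 1 for the regulation of glycolysis.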
